A study of Mus musculus with 5 samples.

Results

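The genes described here are the natriuretic peptides, their receptors and the protease that activates them. They are the 7 rows named Nppa, Nppb, Nppc, Npr1, Npr2, Npr3 and Corin, of 19061 gene rows in the RNA sequencing tables of mouse hearts. The hearts came from C57BL/6 mice with a calcineurin transgene, labelled MHC-CnATg, taken at postnatal day 158. Every animal in both groups carried the transgene. One group had been given vehicle (2 libraries) and the other JIB-04 at 50 mg/kg (3 libraries), dosed 3 times weekly once the mice were 4 weeks old. JIB-04 is a small molecule that inhibits Jumonji histone demethylases, which remove methyl groups from histones. The transgene drives an active form of the phosphatase calcineurin in cardiomyocytes from a cardiac myosin heavy chain promoter, which produces severe hypertrophy. Hearts without the transgene were not analysed here, so no member can be set against a normal level. One JIB-04 library (replicate 3) has a title that writes the transgene with a different letter, while its genotype label matches the rest. Whether each library was a separate animal is not spelled out in the labels, so p-values measure only the spread between these libraries.

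Atrial natriuretic peptide (ANP, from Nppa) and B-type natriuretic peptide (BNP, from Nppb) are hormones that the heart releases when its wall is stretched. In the adult, Nppa is made mostly in the atria, and its return in ventricular muscle is among the best known marks of hypertrophy. Corin, a membrane protease of cardiomyocytes, cuts the ANP precursor into its active form. ANP and BNP act through the receptor guanylyl cyclase encoded by Npr1, and C-type natriuretic peptide (CNP, from Nppc) acts through that encoded by Npr2. Both receptors make cyclic GMP. Npr3 encodes the clearance receptor, which takes up all of these peptides and lacks a cyclase domain.

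The libraries held 32152168 to 37002846 reads counted on the gene rows, recovered from the deposited values as described under the processing. Levels are the deposited values headed CPM, in the order of the replicate numbers within each group. These are scaled reads whose totals differ between the libraries. The cardiomyocyte markers were all high, with the lowest member at 1151 CPM in any library. Ppp3ca encodes the calcineurin A subunit and can take up transgene reads. It measured 6082 and 8022 CPM with vehicle, against 7275, 4341 and 5421 CPM with JIB-04. The groups overlapped, with a log2 fold change of -0.33 (limma adjusted p = 0.862), and the lowest level was in JIB-04 replicate 2. Lists of markers for other cells differed between the libraries and are given below beside the members. In heart tissue, fewer cells of a type and less RNA per cell cannot be told apart.

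No tested member was called different between JIB-04 and vehicle hearts, in a comparison of 2 against 3 libraries. Both cardiac peptide genes were abundant in every library, Npr2 and Npr3 varied little, and Nppc was at the limit of detection. The log2 fold changes of the 6 members that could be tested ran from -0.32 for Corin to 0.24 for Nppb. None passed (limma adjusted p from 0.821 to 0.949). Of the 6, 2 had positive and 4 negative values, where 46.9% and 53.1% of all genes did. Over all 14414 genes tested, limma also called 0 genes (0%), with 928 (6.44%) at an unadjusted p under 0.05, 3.93% higher and 2.51% lower with JIB-04. No member was among these. On the recovered reads edgeR also called 0 genes and DESeq2 84, again with no member among them.

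**Figure D1:**
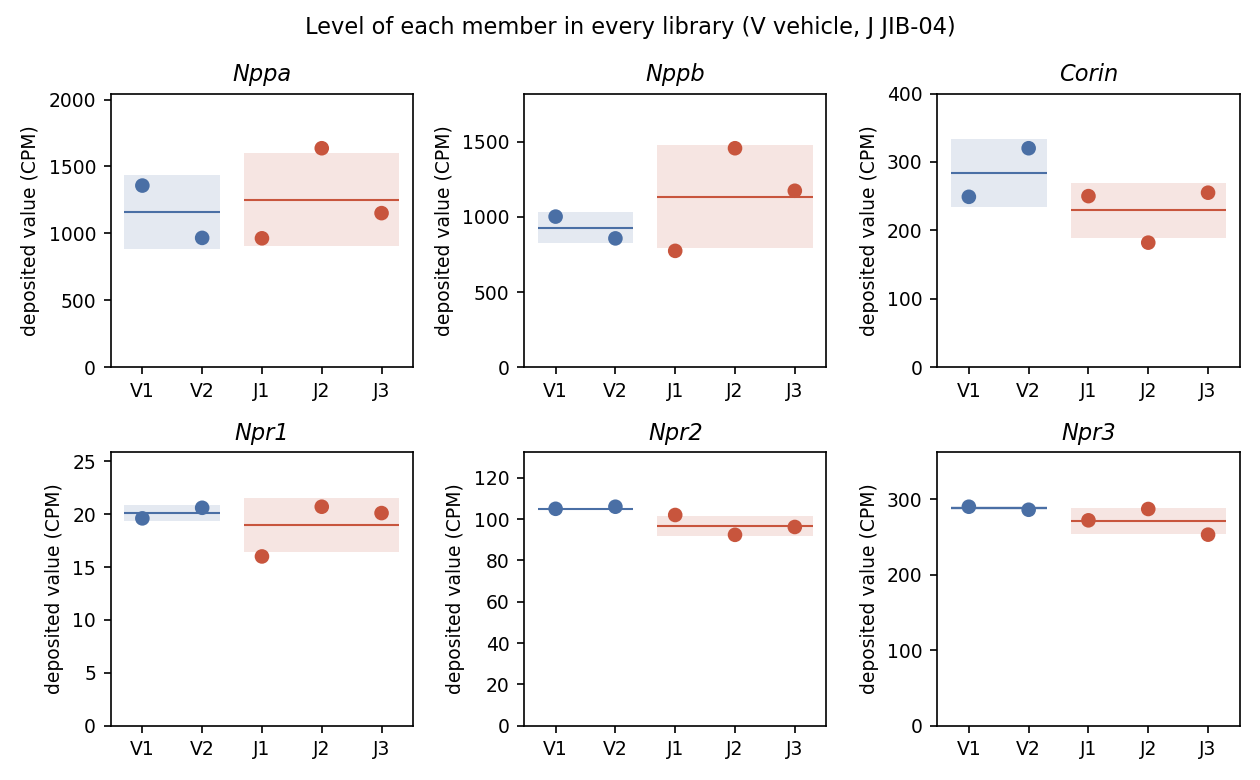
Deposited CPM (vertical axes, from 0) of 6 members in each library (horizontal axes, V1 and V2 vehicle in blue, J1 to J3 JIB-04 in red); lines are group means and bands 1 SD. Nppa and Nppb are highest in JIB-04 replicate 2 (J2), at 1636 and 1457 CPM, where Corin is lowest at 182 CPM, and Npr2 and Npr3 stay within narrow ranges.

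Nppa measured 1357 and 966 CPM with vehicle, against 963, 1636 and 1151 CPM with JIB-04. The highest and the lowest of the 5 libraries were both JIB-04 hearts, and both vehicle hearts lay between them. The means were 1162 ± 276 CPM (SD, n = 2) and 1250 ± 347 CPM (SD, n = 3). The log2 fold change was 0.09 (SE 0.25, limma adjusted p = 0.949), and its 95% interval ran from -0.50 to 0.68. On the fold scale this interval spans 0.709 to 1.60. The sign itself depended on single hearts: leaving out vehicle replicate 2 gave -0.15, leaving out JIB-04 replicate 2 gave -0.12, and leaving out vehicle replicate 1 gave 0.34.

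Nppb measured 1002 and 857 CPM with vehicle, against 774, 1457 and 1174 CPM with JIB-04. JIB-04 replicates 2 and 3 lay above both vehicle hearts and JIB-04 replicate 1 lay below both, so the groups overlapped. The means were 929 ± 103 CPM (SD, n = 2) and 1135 ± 343 CPM (SD, n = 3), a log2 fold change of 0.24 (SE 0.25, limma adjusted p = 0.872) and a 95% interval from -0.36 to 0.85. Without JIB-04 replicate 1 the log2 fold change was 0.50 (unadjusted p = 0.0119 and adjusted p = 0.154 with limma), and without JIB-04 replicate 2 it was 0.04. In the fit without JIB-04 replicate 1, 18.7% of all genes had an unadjusted p under 0.05.

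Nppa rested on 29682 to 61091 reads and Nppb on 25794 to 54389 reads in a library, for which counting alone gives a coefficient of variation of at most 0.58% and 0.623%. The coefficients of variation observed among the JIB-04 hearts were 27.8% for Nppa and 30.3% for Nppb. From the lowest to the highest library the peptide genes spanned 1.70-fold and 1.88-fold. Among the 9034 tested genes with a mean of at least 10 CPM, 4.36% had a wider log2 range than Nppa and 2.50% a wider one than Nppb, against a median range of 0.23. Both groups contributed to this spread for Nppa, with a coefficient of variation of 23.8% among vehicle hearts, and less so for Nppb, at 11.1%.

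The peptide genes took up a visible share of each library. Nppa and Nppb together gave 0.237% and 0.174% of the reads counted on gene rows in vehicle, and 0.172%, 0.324% and 0.235% in JIB-04. For each 100 CPM of Nppa there were 73.8 and 88.6 CPM of Nppb in vehicle, and 80.3, 89.0 and 102 in JIB-04. The log2 ratio of Nppb to Nppa was -0.31 ± 0.19 (SD, n = 2) in vehicle and -0.15 ± 0.17 (SD, n = 3) in JIB-04. This difference of 0.15 gave a two-sided exact permutation p = 0.4 where 0.1 is the smallest p possible. JIB-04 replicate 3 had the highest ratio and vehicle replicate 1 the lowest.

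Nppb and Nppa lie side by side on chromosome 4 (mm10, coordinates as in the files), at chr4:147985787-147987205 and chr4:148000745-148002067 on the forward strand, 13539 bases apart. Of 12 neighbouring genes listed for this region, 10 had enough reads for a test. They had 5 positive and 5 negative log2 fold changes, from -0.15 to 0.08, with a median of -0.01, the same as the median of all genes tested. Clcn6, a chloride transporter gene 4415 bases beyond Nppa, measured 9.94 and 10.1 CPM with vehicle, against 10, 10.5 and 10.7 CPM with JIB-04. From lowest to highest library the 10 neighbours spanned 1.07-fold to 1.37-fold, a narrower range than that of either peptide gene. Fbxo44, an F-box protein gene with the smallest p of the neighbours, had a log2 fold change of -0.15 (limma adjusted p = 0.821). An antisense transcript, Gm13054, overlaps Nppa in the GENCODE annotation. Since the strand setting of the counting is not given in the sources used here, its reads cannot be told apart from those of Nppa.

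Promoter stretches of Nppa and Nppb are shown because these were the members that varied most between hearts together with Corin, and lie next to each other. The sequences are from RefSeq (GRCm38.p6, forward strand), which held 1 promoter entry for each of the 7 members. Capitals mark the core bound by GATA factors (GATAA, searched on both strands, so also TTATC) and the TATA box (TATAAA, on both strands). For Nppa the 250 bases before the RefSeq start are printed (chr4:148000472-148000721).
Nppa: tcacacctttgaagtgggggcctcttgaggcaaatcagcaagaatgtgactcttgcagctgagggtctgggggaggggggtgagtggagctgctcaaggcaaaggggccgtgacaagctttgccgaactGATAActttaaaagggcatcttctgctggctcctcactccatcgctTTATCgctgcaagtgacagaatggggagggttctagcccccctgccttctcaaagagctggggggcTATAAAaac
For Nppb, 2 stretches of 30 bases before the RefSeq start at 147985900 are printed (chr4:147985800-147985829 and chr4:147985855-147985884). Only these are shown because a longer RefSeq transcript begins further upstream, and both lie within the Nppb interval given above.
Nppb GATA stretch: gcagctGATAAatcagaGATAAccccaccc
Nppb TATA stretch: acactcagccccagTATAAAaggcagaggc

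The GATAA core was found 2 times in the 250 bases before the RefSeq start of each peptide gene. In Nppa the matches began 121 and 75 bases before the start, on opposite strands, and in Nppb 94 and 83 bases before it, both on the forward strand. TATAAA began 9 bases before the start in Nppa and 31 in Nppb. These distances are from the RefSeq starts, 148000722 and 147985900, which differ from the starts in the coordinates above. Of 32851 RefSeq promoters of the same length, 22.6% held GATAA, 4.28% held it 2 or more times, and 0.938% held it 2 or more times together with TATAAA. This combination is the one that Nppa and Nppb hold, so its share is a description of them and not a test. The other 5 members had no GATAA in this window, and Nppc alone among them had TATAAA, which 12.4% of all promoters held. The GGAAA core of NFAT factors, the direct targets of calcineurin, was absent from the windows of Nppa and Nppb and occurred in 55.6% of all promoters. The GGAATG core of TEAD factors was found 1 time in Nppb (12.6% of all promoters) and the AAGTG core of NKX2-5 2 times in Nppa (40.7%). The E-box CANNTG occurred 2 times in Nppa and 1 time in Nppb (66.2% of all promoters), 1 of those in Nppa overlapping an AAGTG, and the AP-1 site TGANTCA was in no member (6.75%). All cores were searched on both strands. These are matches of letters in a short window and not shown binding.

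**Figure D2:**
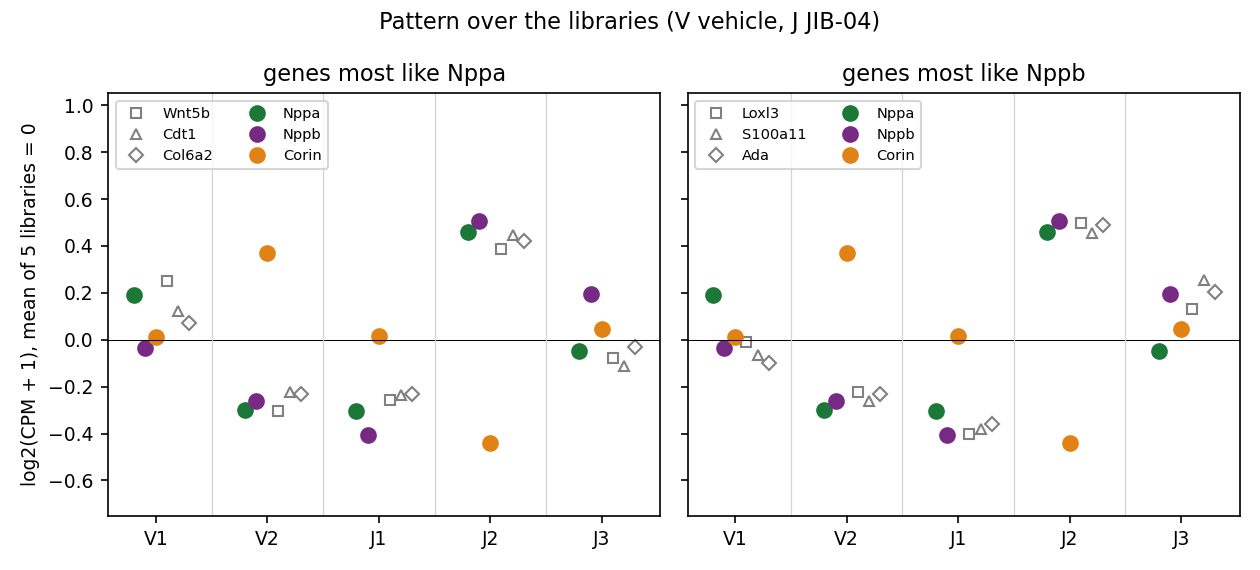
Log2(CPM + 1) with the mean of the 5 libraries set to 0 (vertical axis) in vehicle (V1, V2) and JIB-04 libraries (J1 to J3), for Nppa, Nppb and Corin (filled circles) and the 3 genes most like Nppa (left) or Nppb (right, open symbols). Nppa and Nppb are highest and Corin is lowest in J2, and the genes most like each peptide follow it within 0.070 (root mean square) over the 5 libraries.

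Genes with the pattern most like that of a peptide gene were sought among 12844 genes with a mean of at least 1 CPM, by the root mean square difference of centred log2(CPM + 1) levels over the 5 libraries. For Nppa these were Wnt5b, a secreted Wnt ligand (difference 0.049), Cdt1, a DNA replication licensing factor (0.063), and Col6a2, a chain of type VI collagen (0.070). For Nppb they were Loxl3, a collagen crosslinking enzyme of the lysyl oxidase family (0.034), S100a11, a calcium binding protein (0.040), and Ada, adenosine deaminase (0.040). Col6a2 measured 246 and 199 CPM with vehicle, against 199, 313 and 229 CPM with JIB-04, and S100a11 measured 51.0, 44.3, 40.7, 73.4 and 63.8 CPM in the same order. Adding 1 compresses the differences of genes at low levels. Wnt5b ran only from 1.33 to 2.76 CPM, Cdt1 from 2.16 to 4.07 CPM and Ada from 0.6 to 1.88 CPM. Their likeness holds on this scale and not for their fold range. The likeness between Nppa and Nppb themselves was looser (0.157), and Nppb ranked 142 among the genes most like Nppa. With 5 libraries many genes share a pattern, and these likenesses are a description of the libraries.

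Corin was not called different between the groups, and was lowest in the heart with the most Nppa and Nppb. It measured 249 and 320 CPM with vehicle, against 250, 182 and 255 CPM with JIB-04 (chr5:72300024-72504540, reverse strand). The lowest level was in JIB-04 replicate 2 and the highest in vehicle replicate 2, where Nppa was near its lowest. JIB-04 replicate 1, with equally little Nppa, had a middling level, so the order was not a full reversal. The means were 284 ± 49.8 CPM (SD, n = 2) and 229 ± 40.7 CPM (SD, n = 3). The log2 fold change of -0.32 (SE 0.17, 95% interval from -0.73 to 0.09) was the largest among the members and did not pass (limma adjusted p = 0.821). It was -0.49 without vehicle replicate 1, -0.14 without vehicle replicate 2 and -0.16 without JIB-04 replicate 2. Vehicle replicate 1 and JIB-04 replicates 1 and 3 all lay from 249 to 255 CPM. In the annotation 5 other genes overlap the long Corin gene, among them Gm20647 on the opposite strand.

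The other genes listed for processing and clearance of the peptides were nearly level between the groups. They are enzymes and Ostn, which encodes osteocrin, a secreted ligand of the clearance receptor. Of the 10 listed, 9 could be tested, with 4 positive and 5 negative values, a median under 0.01 in size, 0 calls, and 0 with groups that did not overlap. Over all genes tested, 10.7% had all JIB-04 hearts above the vehicle hearts and 12% had all of them below. Furin, the convertase that cuts the precursors of BNP and CNP, measured 381 and 405 CPM with vehicle, against 419, 391 and 358 CPM with JIB-04. Mme, which encodes neprilysin, the protease that degrades natriuretic peptides and the target of sacubitril, was low throughout, at 1.93, 1.79, 2.25, 0.938 and 1.68 CPM in the same order. Ece1, an endothelin converting enzyme, had the smallest p on this list, with a log2 fold change of 0.14 (limma adjusted p = 0.862).

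Npr1, the receptor for ANP and BNP, measured 19.6 and 20.6 CPM with vehicle, against 16, 20.7 and 20.1 CPM with JIB-04 (chr3:90450591-90465866, reverse strand). Only JIB-04 replicate 1 stood apart, below the other 4 libraries. The means were 20.1 ± 0.725 CPM (SD, n = 2) and 19.0 ± 2.54 CPM (SD, n = 3), a log2 fold change of -0.09 (SE 0.12, limma adjusted p = 0.895). Without JIB-04 replicate 1 the value was 0.02. Its 535 to 774 reads a library allow a counting error of up to 4.32%, below the 13.4% coefficient of variation among JIB-04 hearts. Npr1 spanned 1.29-fold over the 5 libraries, and 24.5% of genes with a mean of at least 10 CPM had a wider log2 range.

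Npr2, the receptor for CNP, measured 105 and 106 CPM with vehicle, against 102, 92.4 and 96.2 CPM with JIB-04 (chr4:43631934-43651240, forward strand). It was the only member whose groups did not overlap, with every JIB-04 heart below both vehicle hearts, as in 12% of all genes tested. The means were 105 ± 0.11 CPM (SD, n = 2) and 96.9 ± 4.85 CPM (SD, n = 3), for a log2 fold change of -0.12 (SE 0.06, 95% interval from -0.28 to 0.03, limma adjusted p = 0.821). Without JIB-04 replicate 1 it was -0.16 (unadjusted p = 0.0274 and adjusted p = 0.212 with limma), so that Npr2 and Nppb had an unadjusted p under 0.05 in that fit, as did 18.7% of all genes. The vehicle values lay on either side of a rounding step: their coefficient of variation was 0.105%, smaller than the counting error of up to 1.76% at 3241 to 3921 reads. An antisense gene, Gm12473, overlaps Npr2, and Gm16048 overlaps Npr1.

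Npr3, the clearance receptor, was the receptor with the most reads, measuring 290 and 286 CPM with vehicle, against 272, 287 and 253 CPM with JIB-04 (chr15:11839895-11907371, reverse strand). JIB-04 replicate 2 lay between the vehicle hearts, and JIB-04 replicate 3 was lowest. The means were 288 ± 2.46 CPM (SD, n = 2) and 271 ± 17.5 CPM (SD, n = 3), with a log2 fold change of -0.09, an SE of 0.08 and a 95% interval from -0.27 to 0.09 (limma adjusted p = 0.859). On the fold scale this is 0.829 to 1.06, a tighter bound than for the peptide genes. In the 5 libraries Npr3 spanned 1.15-fold and Npr2 1.14-fold, and 59.5% and 61.9% of genes with a mean of at least 10 CPM had a wider log2 range.

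The ratio of clearance receptor to signalling receptor had equal means in the groups. The log2 ratio of Npr3 to Npr1 was 3.82 and 3.73 in vehicle and 4.00, 3.73 and 3.59 in JIB-04. The group means were 3.77 ± 0.06 (SD, n = 2) and 3.77 ± 0.21 (SD, n = 3) (two-sided exact permutation p = 1, with a smallest possible p of 0.1). The JIB-04 hearts spread to both sides of the vehicle hearts, with the highest ratio in replicate 1, where Npr1 was lowest, and the lowest in replicate 3, where Npr3 was lowest.

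**Figure D3:**
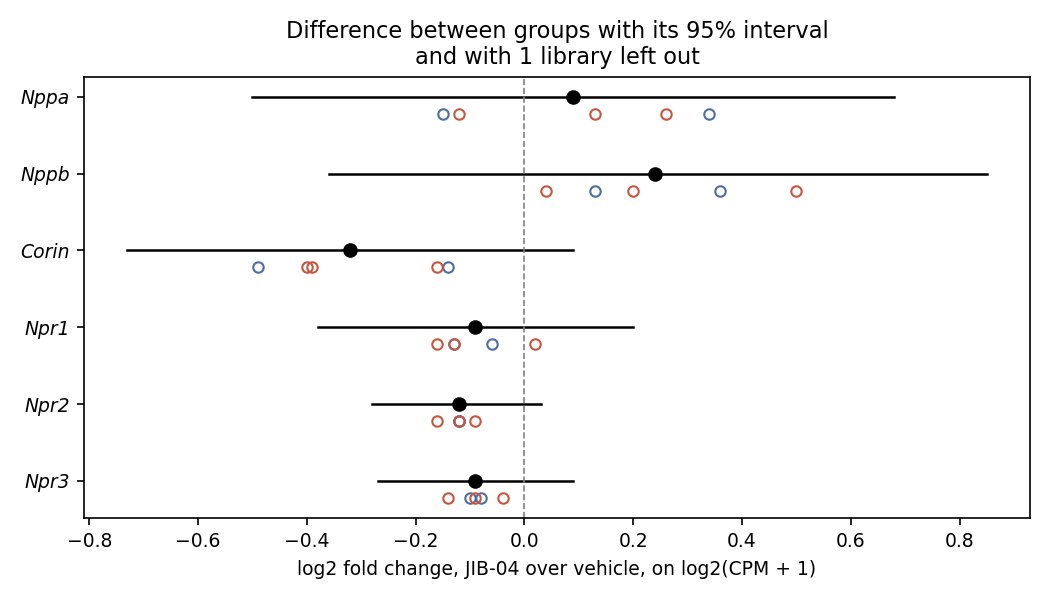
Log2 fold change of JIB-04 over vehicle on the log2(CPM + 1) scale (horizontal axis) for 6 members, with limma's 95% interval (filled points and lines) and the values with 1 library left out (open circles, blue for a vehicle and red for a JIB-04 library). Every interval includes 0, and leaving out 1 heart moves Nppa from -0.15 to 0.34 and Npr3 only from -0.14 to -0.04.

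Nppc, the gene of CNP, had 1 read in each vehicle library and 0, 1 and 3 reads in JIB-04, 6 reads in all (chr1:86666292-86670573, reverse strand). In CPM these are 0.0269 and 0.0326 in vehicle and 0, 0.0268 and 0.0852 in JIB-04, at or below the value of 3 reads, 0.0804 to 0.0977 CPM. It was the single member removed by the filter on low reads. No difference was detectable at this depth, and no fold is given.

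To compare levels between genes, CPM was divided by the exonic length in kilobases of the GENCODE M21 annotation, which may differ from the gene models the authors counted. Nppa had 1114 to 1892 CPM per kilobase and Nppb 991 to 1865, ranks 22 and 23 of 13690 tested genes with a length. Their ranges overlapped almost fully, so their order is not set by these data. Corin followed at 33.8 to 59.2 CPM per kilobase, then Npr3 at 26.9 to 30.8 and Npr2 at 19.8 to 22.6. Npr1 was lower again, at 3.36 to 4.33 CPM per kilobase, with 50.0% of the genes below it. These last 4 ranges did not overlap. Per kilobase, Npr3 exceeded Npr1 by 6.41-fold to 8.63-fold and Npr2 exceeded Npr1 by 4.57-fold to 6.52-fold in the 5 libraries.

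Downstream of the receptors, 19 genes of cyclic GMP signalling and breakdown were tested. None passed over all genes, 12 had positive and 7 negative log2 fold changes, and the median was 0.07, beside -0.01 over all genes tested. Of these, 5 had all JIB-04 hearts above the vehicle hearts (10.7% of all genes) and 0 had all below (12%). Gucy1a3 and Gucy1b3, which encode subunits of soluble guanylyl cyclase, which makes cyclic GMP in response to nitric oxide and not to natriuretic peptides, were among these 5. Gucy1a3 measured 21.0 and 18.8 CPM with vehicle, against 27.7, 27.2 and 25.8 CPM with JIB-04, with a log2 fold change of 0.42 (SE 0.08, limma adjusted p = 0.426). DESeq2, which called 84 of 14134 genes (0.594%), called Gucy1a3 higher (adjusted p = 0.0304). Gucy1b3 measured 19.3 and 22.5 CPM with vehicle, against 24.2, 27.5 and 24.8 CPM with JIB-04 (limma adjusted p = 0.748). Gucy1a2, another subunit gene of that cyclase, had overlapping groups and a log2 fold change of -0.05 (limma adjusted p = 0.936).

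The phosphodiesterase Pde9a, which breaks down the cyclic GMP pool tied to natriuretic peptide receptors in cardiomyocytes, measured 3.65 and 3.78 CPM with vehicle, against 4.38, 5.44 and 4.80 CPM with JIB-04. Its groups did not overlap, and its log2 fold change of 0.31 (SE 0.12) did not pass (limma adjusted p = 0.748). Pde5a, the phosphodiesterase that sildenafil inhibits, measured 3.90 and 3.87 CPM with vehicle, against 3.78, 4.29 and 4.32 CPM with JIB-04. Prkg1, the kinase that cyclic GMP activates, measured 33.2 and 27.1 CPM with vehicle, against 30.2, 24.8 and 29.1 CPM with JIB-04. The groups overlapped for both genes.

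Among 26 regulators known to act on Nppa or Nppb, 11 had positive and 15 negative values, with a median of -0.01 and 0 calls. In 3 of them all JIB-04 hearts lay above the vehicle hearts and in 4 all lay below, where 10.7% and 12% of all genes did. Gata4, which binds GATA cores of the kind printed above, measured 192 and 203 CPM with vehicle, against 221, 204 and 221 CPM with JIB-04, a log2 fold change of 0.12 (limma adjusted p = 0.821). Hand2, a basic helix-loop-helix factor of the developing heart, measured 115 and 117 CPM with vehicle, against 85.3, 79.5 and 108 CPM with JIB-04 (limma adjusted p = 0.748). Myocd, the SRF coactivator myocardin, measured 69.9 and 75.9 CPM with vehicle, against 66.5, 53.0 and 64.7 CPM with JIB-04 (limma adjusted p = 0.789). Nfatc1, a target of calcineurin, measured 31.0 and 33.1 CPM with vehicle, against 33.1, 34.4 and 37.9 CPM with JIB-04.

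Other markers of hypertrophy did not pass either. Of 15 genes, 7 had positive and 8 negative values, with a median of -0.02. Myh7, the beta myosin heavy chain that replaces the alpha chain in stressed mouse ventricles, measured 26279 and 29944 CPM with vehicle, against 33810, 20750 and 31566 CPM with JIB-04. It was lowest in JIB-04 replicate 2, where Nppa and Nppb were highest. Actc1, Acta2 and Pln on this list were also lowest in that library, while Ankrd1, Xirp2, Rcan1, Fhl1 and Nmrk2 were highest in it. Acta1, skeletal alpha actin, measured 1578 and 2583 CPM with vehicle, against 2296, 2244 and 2294 CPM with JIB-04. Nmrk2, a nicotinamide riboside kinase induced in failing hearts, measured 36.7 and 36.1 CPM with vehicle, against 43.0, 113 and 58.4 CPM with JIB-04, with groups that did not overlap (limma adjusted p = 0.787). Csrp3, the muscle LIM protein, measured 940 and 900 CPM with vehicle, against 744, 823 and 848 CPM with JIB-04 (limma adjusted p = 0.816).

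**Figure D4:**
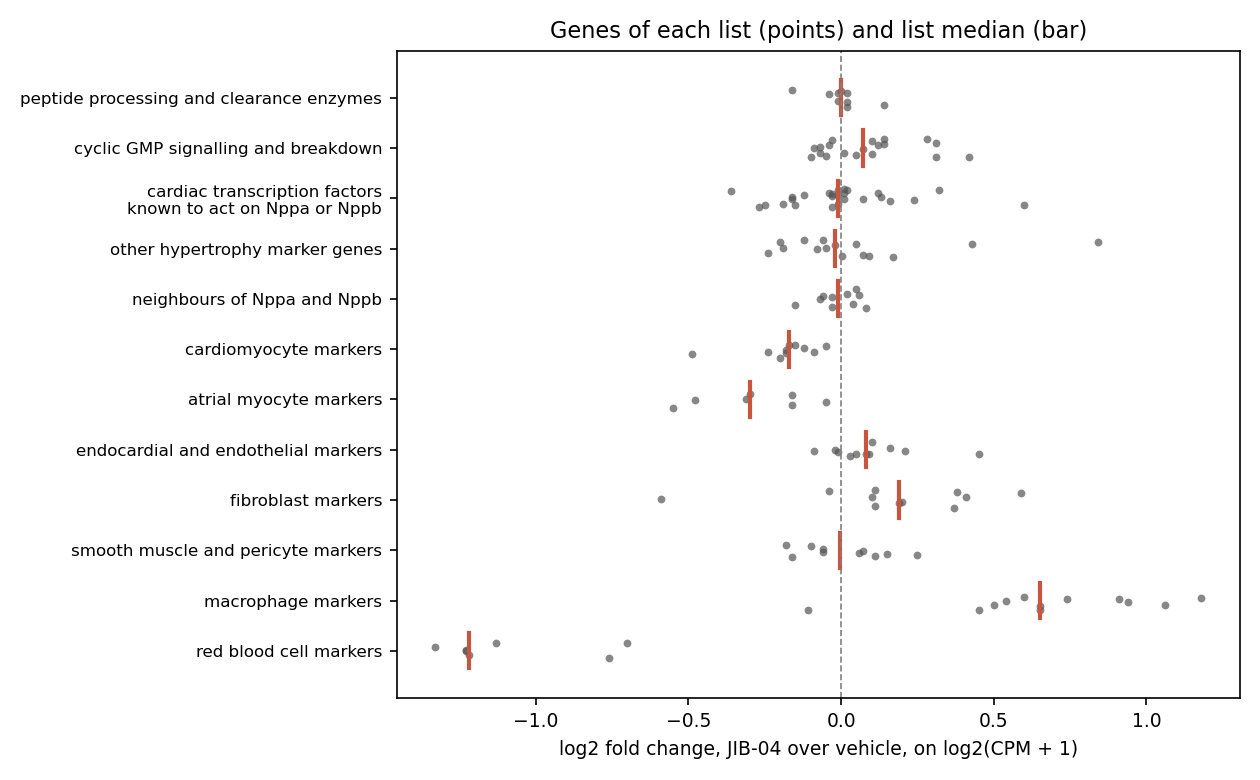
Log2 fold change of JIB-04 over vehicle on the log2(CPM + 1) scale (horizontal axis) for each tested gene of 12 lists (rows; points spread vertically for legibility), with the list median as a red bar. Medians of the lists tied to the natriuretic system lie between -0.02 and 0.07, and those of the macrophage and red blood cell markers at 0.65 and -1.22.

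Markers of cell types also differed across the same hearts. JIB-04 replicate 2, with the most Nppa and Nppb and the least Corin, had a median of -0.36 for 10 cardiomyocyte markers, -0.47 for 7 tested atrial markers, 0.52 for 11 fibroblast markers and 0.30 for 11 endothelial markers, in log2 relative to the vehicle mean. In JIB-04 replicate 1, with little of both peptides, the same medians were -0.0031, -0.10, 0.01 and -0.13. JIB-04 replicate 3 had -0.12, -0.31, 0.24 and -0.03. Vehicle replicate 1, with the next most Nppa, had -0.08, 0.04, 0.07 and -0.06, and vehicle replicate 2 had 0.08, -0.04, -0.07 and 0.06. Atrial markers in sum ran from 53.2 to 60.8 CPM in vehicle and from 37.8 to 53.8 CPM in JIB-04. The lowest sum was in JIB-04 replicate 2 and the highest in vehicle replicate 1, the hearts with the most and the next most Nppa. Nr2f2, Myl4, Kcnj3, Stard10 and Kcna5 made up most of it, while the defining atrial genes were low, with Myl7 at 1.19 to 2.15 CPM, Sln at 0.0977 to 0.21 CPM and Bmp10 at 0.12 to 0.994 CPM. Of these 8 genes, all but Stard10 and Kcna5 were singled out after their values were seen. So were Ostn and Gucy1a2, and Actc1, Acta2, Pln, Ankrd1, Xirp2, Rcan1 and Fhl1 among the hypertrophy markers. All 7 tested atrial markers had negative values (53.1% of all genes), 3 of them with all JIB-04 hearts below the vehicle hearts (12%). The cardiomyocyte markers went the same way: all 10 had negative values, 3 of them with all JIB-04 hearts below the vehicle hearts. The median log2 fold changes were -0.30 for the atrial and -0.17 for the cardiomyocyte markers. No listed atrial marker was at 0 in any library. Cardiomyocyte markers in sum ran from 76263 to 86418 CPM in vehicle and from 65447 to 80917 CPM in JIB-04, fibroblast markers from 2800 to 3139 and from 2942 to 4303 CPM, and endothelial markers from 851 to 900 and from 799 to 1045 CPM. Of 11 fibroblast markers, 9 had positive and 2 negative values. Lum, with the smallest p of these, measured 131 and 123 CPM with vehicle, against 159, 168 and 167 CPM with JIB-04 (adjusted p = 0.399 with limma and 0.00491 with DESeq2). Dpep1, with the next smallest, was lower with JIB-04, at 71.2 and 90 CPM against 59.1, 38.2 and 65.2 CPM (adjusted p = 0.748 with limma and 0.455 with DESeq2). Kcna5, a potassium channel gene on the atrial list, measured 8.81 and 8.76 CPM with vehicle, against 5.85, 5.57 and 5.63 CPM with JIB-04. Its adjusted p was 0.399 with limma and 0.0253 with DESeq2. The cell type it was read from is not known here. Macrophage markers in sum ran from 265 to 366 CPM in vehicle and from 371 to 582 CPM in JIB-04, and red blood cell markers from 2511 to 3838 and from 930 to 1843 CPM. Of 12 macrophage markers 9 had an unadjusted p under 0.05 and were higher, beside 3.93% of all genes. Ptprc, the leukocyte antigen CD45, measured 7.63 and 7.29 CPM with vehicle, against 13.3, 14.3 and 17.5 CPM with JIB-04 (adjusted p = 0.371 with limma and 4.72e-05 with DESeq2). Cx3cr1 measured 3.79 and 3.32 CPM with vehicle, against 6.42, 11.3 and 11.1 CPM with JIB-04 (adjusted p = 0.426 with limma and 0.000624 with DESeq2). Of the 12 macrophage markers, 11 had positive values and 1 a negative one. Of 7 red blood cell markers 6 had an unadjusted p under 0.05 and were lower, beside 2.51% of all genes. Bpgm, the bisphosphoglycerate mutase of red cells, measured 61.7 and 45.5 CPM with vehicle, against 27.1, 38.1 and 28.5 CPM with JIB-04 (adjusted p = 0.499 with limma and 0.0304 with DESeq2). Hbb-b1, a beta globin chain, measured 2027 and 1350 CPM with vehicle, against 500, 970 and 715 CPM with JIB-04 (adjusted p = 0.499 with limma and 0.243 with DESeq2). Smooth muscle and pericyte markers had a median log2 fold change of -0.0029. The part of any of these cell types in the levels of the peptide genes, Corin or the receptors was not tested.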

How the data were processed

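RNA sequencing of hearts was analysed from 5 libraries, 2 vehicle and 3 JIB-04, grouped by the treatment label. The deposited files give 1 value for each gene under a header reading CPM, here used as a normalised signal because the columns sum to 954981 to 1046902 per library and not to a fixed total. Per the labels' protocols, Trizol RNA went into a TruSeq kit that keeps strand. The submitters' processing notes name build mm10 and, without roles, edgeR, Subread, featureCounts, Picard 1.127, TopHat2 2.0.12 and FastQC 0.11.2. The strand setting of the counting is not given in the sources used here. All values (100%) were whole multiples of the value of 1 read within 0.01, so whole reads were recovered. Intervals and limits from read numbers cover counting error only.

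The 1 blank row was left out. Genes were kept by edgeR's filterByExpr (minimum 10 reads, 15 in total), which left 14414 genes and 6 of 7 members. The main test was limma 3.58.1 (R 4.3.3) with a mean-variance trend on log2(CPM + 1), which understates changes of low genes, p-values being adjusted by Benjamini-Hochberg across the genes kept and called under 0.05. The replicate numbers were not used as a block. edgeR 4.0.16 quasi-likelihood and limma-voom on the recovered reads called 0 genes (946 and 872 at an unadjusted p under 0.05), and DESeq2 1.42.0 called 84. Each tool was also run on simulated counts with the same spread setting for every gene and larger changes than the members showed. This gives no measure of how the tools treat differences as small as theirs. Ratios were tested by exact permutation.

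The members and the 12 gene lists were chosen with earlier results of these data known. Genes named are the members, the 2 with the smallest p on each list, 10 chosen by name and the 3 most like Nppa or Nppb. Of the cell marker genes so picked, values are given for Kcna5, Lum, Dpep1, Ptprc, Cx3cr1, Bpgm and Hbb-b1. Stard10 is named without its values, and the others so picked are left out.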

Additional observations from a re-analysis of the deposited data

How the results depend on the processing

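The count of calls and the log2 fold changes of the named genes were recomputed with other pseudocounts (0.5 and 0.1), with no filter or a mean of at least 1 CPM, with plain library totals or DESeq2 size factors, with edgeR, limma-voom and DESeq2, with the replicate number as a block, and without each library in turn. The ratios were recomputed with the other pseudocounts and without each library, and the likeness ranks, ranks per kilobase and counts of groups that did not overlap under no alternative. No member passed an adjusted threshold under any of these. Over all genes limma called 0, DESeq2 84, and the fits without 1 library 0 to 29, the 29 without JIB-04 replicate 1. Nppb, Npr2, Npr3 and Corin kept their direction throughout, with log2 fold changes over all alternatives of 0.04 to 0.50, -0.16 to -0.07, -0.14 to -0.04 and -0.49 to -0.14. Without 1 library Nppa ran from -0.15 to 0.34 and Npr1 from -0.16 to 0.02. Plain library totals moved the median of all genes by 0.05. The difference in the log2 ratio of Npr3 to Npr1 (-0.00053) was 0.0018 and 0.0037 at pseudocounts of 0.5 and 0.1, and -0.11 to 0.09 without 1 library. Of the other named genes, Furin was at 0.04 with plain library totals and with the block, and Myh7 at -0.08 with the block. Without 1 library these genes changed sign: Furin ran from -0.07 to 0.04, Myh7 from -0.13 to 0.22, Mme from -0.33 to 0.04, Prkg1 from -0.24 to 0.04, Acta1 from -0.18 to 0.53, Wnt5b from -0.23 to 0.32, Cdt1 from -0.12 to 0.26, Col6a2 from -0.05 to 0.29 and Loxl3 from -0.02 to 0.43. The cause of these changes was not tested beyond the library left out.

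The groups share replicate numbers 1 and 2, but nothing says that these mark a shared litter, batch or day. Deviations of same-numbered libraries from their group means had correlations over genes of -0.133 and -0.135. The deviations of the 2 vehicle libraries mirror each other by construction, so these values cannot decide whether the numbers mark a pairing. With the replicate block limma called 0 genes (532 at an unadjusted p under 0.05), and the log2 fold changes were 0.13 for Nppa, 0.20 for Nppb and -0.40 for Corin. With 2 against 3 libraries the intervals of the peptide genes reach up to 1.60-fold and 1.80-fold, and 6 reads in all limit what can be said of Nppc.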
